A study of Xenopus laevis with 4 samples.

Results

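Homeolog pairs of Xenopus laevis in which both copies of a gene carried a peak of methylated DNA at a gene end were described here. A pair was a protein-coding gene of the L subgenome and one of the S subgenome whose RefSeq symbols are unique and differ only in .L and .S. The pairs were chosen by the peak calls themselves: on L and on S, at least 1 gene end had, within 1 kb on either side, overlap with a peak in replicate 1 and with a peak in replicate 2. This rule was met by 124 of 7764 pairs, or 1.6% of them, and so by 248 of 15528 homeologs. Which pairs carry peaks is therefore the rule and not a finding. The sections that follow describe where at the genes these peaks lie, how the L copy compares with the S copy, and which genes are involved.

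The study asked which chromatin marks are present in the embryo before its own genome is transcribed, and the data used here are its map of DNA methylation. The material was wild-type whole embryos of the 256-cell stage (4.5 h after fertilization), which precedes zygotic genome activation, and each replicate pooled 250 embryos. The 4 samples form 2 groups of 2 replicates, the MBD capture libraries and the Input libraries of the same embryos, with no treatment, and whole embryos mix all cell types of the stage. In MBD-seq, a protein domain that binds methylated CpG (MBD) pulls down genomic fragments for sequencing, and peaks are regions with more captured tags than the Input of the same replicate.

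Xenopus laevis is an allotetraploid frog. Its genome joins the L (longer) and S (shorter) subgenomes of separate ancestors, and many genes persist as an L and an S copy, called homeologs, on chromosomes that still share most of their gene order. In vertebrates, methyl groups sit mainly on the cytosine of CpG dinucleotides and cover most of the genome, gene bodies included, whereas many promoters with dense CpG stay free of the mark. MBD capture responds to both methylation and CpG density, so a sequence without a peak may still be methylated.

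Replicate 1 had 17645240 tags and 131303 peaks, and replicate 2 had 23909019 tags and 222771 peaks. The commonest peak width was 501 bp, which 67.4% of the peaks of replicate 1 and 61.5% of those of replicate 2 had, so most peaks are a single caller window and their length says little about the length of methylated sequence. The lists give no tag count or fold per peak. The values below are therefore positions and the number of bases of the 1-kb end windows that lie in peaks, and their precision is set by the 2 replicates. Gene coordinates came without a strand. The lower-coordinate and the higher-coordinate end are named as such, and which of them holds the transcription start site (TSS) is not known here.

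A minority of gene ends had peaks of both replicates within 1 kb. Over all pairs, 1834 of 31056 gene ends (5.91%) were called in both replicates, with 5.45% of lower and 5.62% of higher ends on L and 5.85% and 6.71% on S. Over the same pairs 837 L homeologs (10.8%) and 938 S homeologs (12.1%) had such an end, and in 1527 pairs (19.7%) exactly 1 homeolog had it. The 124 pairs have 496 gene ends, of which 256 were called, 126 on L and 130 on S. At the other 240 ends, 202 had no peak in either replicate, 9 had a peak in replicate 1 only and 29 in replicate 2 only. Most homeologs thus carried the peak at a single end. Both ends were called in 8 of the 248 homeologs, beside 59 of 15528 (0.38%) over all pairs. That count rests on the rule, which required at least 1 called end of each member.

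The peaks lay away from the gene boundary itself. The share of called ends with a given base in a peak was 45.3% in replicate 1 and 50.6% in replicate 2 at 800 to 1000 bp outside the gene. It was 4.47% and 5.50% in the first 200 bp inside the gene, and 21.9% and 28.3% at 800 to 1000 bp inside. Both replicates had their low point just inside the boundary and more peak bases outside the gene than inside it. The called ends of the pairs with 1 called homeolog had the same shape, with 43.9% and 48.1% at 800 to 1000 bp outside and 6.03% and 8.05% in the first 200 bp inside.

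**Figure D1:**
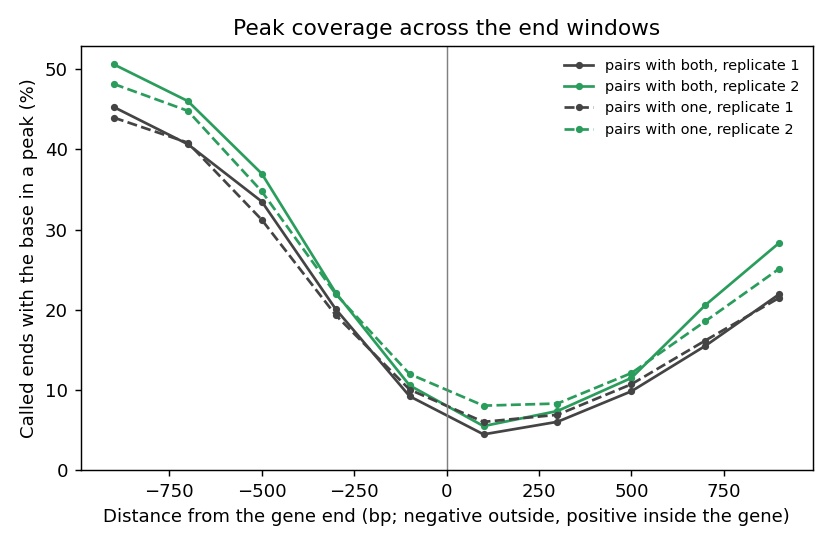
Percentage of called gene ends with a base in a peak (y axis) against the distance from the gene end in bp (x axis, negative outside and positive inside the gene), as means of 200-bp bins. Lines are the 256 called ends of the 124 pairs (solid) and the 1578 called ends of pairs with 1 called homeolog (dashed) in each replicate. All 4 lines are lowest just inside the gene, at 4.47% to 8.05%, and highest at 800 to 1000 bp outside.

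The peaks of the replicates shared bases inside the window at 240 of the 256 called ends and did not at 16. Each of these ends was placed by its longest common stretch within the window. Of the 240, 162 (67.5%) lay outside the gene, 68 (28.3%) inside it and 10 (4.17%) across the boundary. The 1501 common regions of pairs with 1 called homeolog were outside in 64.6%, inside in 29.7% and across in 5.73%. The ends with the boundary base in a peak of both replicates were those of ctps1.L, depdc1b.S, fgf19.S, gpr171.L, gpr65.L, lysmd1.S, pjvk.L, polr1d.1.L, robo1.L and vgll4.S, a list picked from the values. In ctps1.L, which encodes CTP synthase, the common region was chr2L:60081261-60081700. It spans the higher end of the gene at base 60081420. In 9 of the 240 common regions another protein-coding gene was overlapped, among them crbn.L at trnt1.L, scnm1.L at lysmd1.L and elp4.S at immp1l.S.

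The amount of each window covered was modest and varied widely. Peaks were cut at the window edge, so a low count can come from a peak of full width far from the end. In acvrl1.L, for example, 158 and 162 bp come from peaks of 501 bp in both replicates. A difference in these counts between L and S is therefore not a difference in peak length. A called end had a median of 461.5 window bases in peaks of replicate 1 (quartiles 241.5 and 501), 501 in replicate 2 (278 and 626) and 365 common to both (161.5 and 487.25). Replicate 2, the deeper library, had more bases at 138 ends, fewer at 88 and the same number at 30. The median of common bases was 304.5 on L and 414 on S, with wide overlap between the subgenomes, whose quartiles were 157.25 and 469 on L and 169 and 493.75 on S. In the called ends of pairs with 1 called homeolog the median was 374.5. Across the 124 pairs the number of common bases on L had no relation to that on S, with a Spearman rank correlation of -0.01. These points share the 2 libraries and the 501-bp window.

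**Figure D2:**
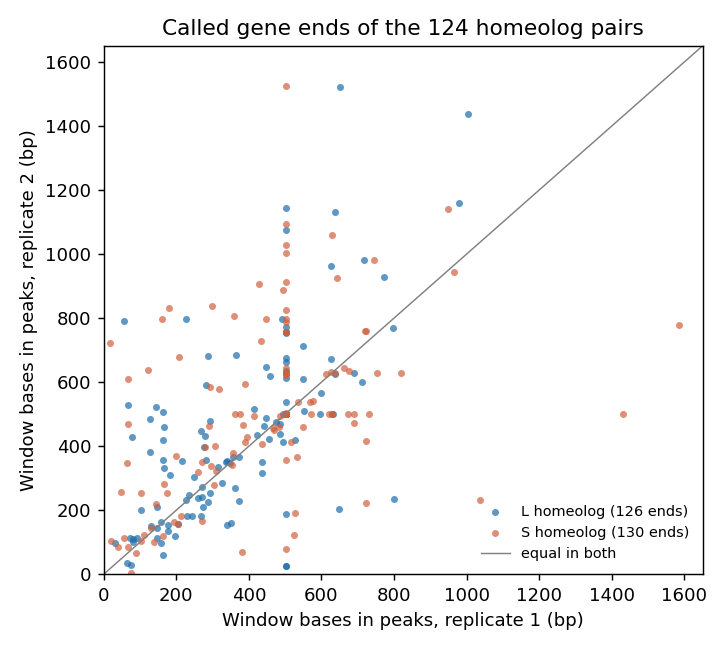
Window bases in peaks of replicate 1 (x axis, bp) against those of replicate 2 (y axis, bp) for each called end of the 124 pairs, with L in blue and S in orange and the line of equal values in grey. The column of points at 501 bp is the caller's single-window peak, and 138 of the 256 ends lie above the line.

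Both homeologs were covered most fully in a group of pairs with genes of unrelated function, named here because the lower of their L and S counts of common bases ranks highest. The splicing factor gene srsf5a had 773 bp in replicate 1 and 928 bp in replicate 2 at its L end. It had 569 and 537 bp at its S end. The common regions were chr8L:101792152-101792983, beyond the higher end of srsf5a.L, and chr8S:2822986-2823581, beyond the lower end of srsf5a.S. Both lay outside the gene, and these are matched ends in the local gene order described below.

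In klhl18, a Kelch-like adaptor of a cullin ubiquitin ligase, the L end had 501 and 636 bp in the replicates and the S end 501 and 626 bp. The common regions chr6L:6538417-6538917 and chr6S:3861144-3861644 lie inside the gene, with midpoints 607 bp from the lower end on L and 546 bp on S. This pair has its peak in nearly the same place of both copies. The gene tnfrsf11b encodes osteoprotegerin, a decoy receptor that restrains bone resorption. It had 712 and 601 bp at the lower L end and 731 and 501 bp at the higher S end. These regions, chr6L:148661360-148662049 and chr6S:123954537-123955037, were outside the gene at opposite matched ends. The zinc finger gene zbtb39 had 691 and 629 bp at its higher L end and 744 and 982 bp at its lower S end, also opposite, with the longest common stretch outside the gene on both copies.

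The tumour suppressor pten, a lipid phosphatase that opposes phosphoinositide signalling, had 596 bp in replicate 1 and 501 bp in replicate 2 at the lower end of pten.L. These bases come from 2 peaks in each replicate, on either side of the end and cut by the window edges. The lower end of pten.S had 819 and 627 bp, with a common region at chr7S:5600372-5600943. All 4 values were above the medians given above or at them, which largely follows from naming the pair by its common bases. In ptger3, a prostaglandin E receptor, the L end had 501 bp in each replicate and the S end 501 and 1028 bp. In cln8, an endoplasmic reticulum protein that helps lysosomal enzymes leave that compartment, the L end had 501 bp in each replicate and the S end 719 and 759 bp. The lymphocyte transcription factor gene spib had 501 bp in each replicate on L, and 501 and 500 bp on S. In cln8 and spib the peaks were outside the gene on both copies, and in ptger3 the replicate 2 peak on S crossed the end.

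Whether L and S carry the peak at the same end was asked for the 116 pairs with a single called end on each copy. By coordinate, the end was the same in 62 (53.4%). Coordinates do not match ends where a stretch of chromosome is inverted between the subgenomes, so ends were also matched through the order of up to 5 neighbouring homeolog pairs on each side. The local order was the same on L and S for 82 of the 124 pairs, inverted for 34 and unresolved for 8, beside 5610, 1849 and 305 of all 7764 pairs. An inversion of a single gene is not seen in this way. With matched ends, the peak lay at the same end in 64 of 109 pairs (58.7%) and at opposite ends in 45 (41.3%), and 7 were unresolved. Same and opposite ends were therefore both common.

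By local order, the share with the same matched end was 47 of 77 pairs (61.0%) in unchanged stretches and 17 of 32 (53.1%) in inverted ones. By chromosome pair it ran from 2 of 8 on chromosome 7 to 10 of 12 on chromosome 5. Over all pairs in a resolved order, where an L end was called the matched S end was called in 71 of 825 cases (8.61%) and the opposite S end in 52 of 825 (6.30%). The level over all such S ends was 933 of 14918 (6.25%). As these calls chose the pairs, the difference was not tested.

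The position of the common region relative to the end also varied between copies. Each midpoint is that of the part within the 1-kb window, because stretches were cut at the window edge. Both copies had a common region in 57 pairs with the same matched end. Their midpoints, measured from the end, were within 250 bp of each other in 22 of these (38.6%). The median difference was 454.5 bp, and the midpoints were on the same side of the end in 34 (59.6%). In 40 pairs with opposite ends, 13 (32.5%) were within 250 bp, the median difference was 352.25 bp and 26 (65.0%) were on the same side. The position within the window on L thus said little about that on S in either set. The Spearman rank correlation was 0.13 over the 57 pairs and -0.13 over the 40. How far the cut at the window edge affects these values was not tested.

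**Figure D3:**
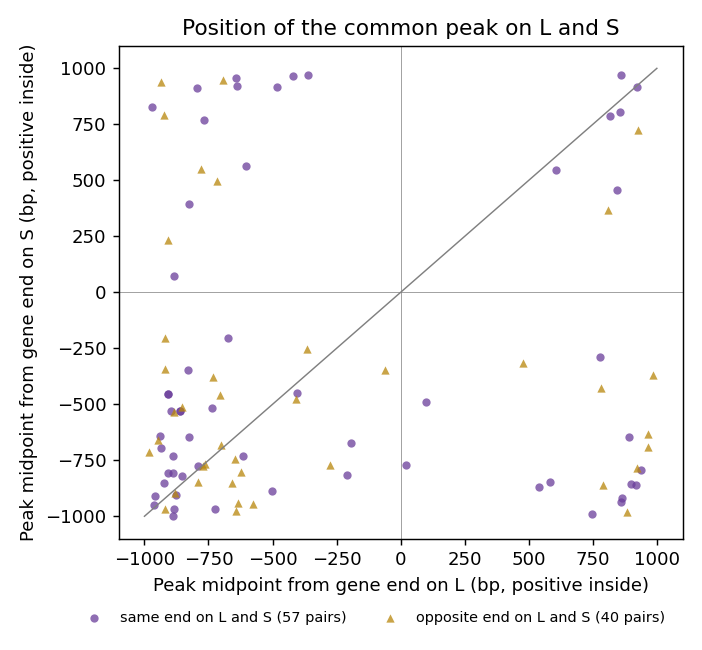
Midpoint, on L (x axis) and on S (y axis), of the longest stretch in peaks of both replicates. Stretches are cut at the edges of the 1-kb window, and distances are from the gene end in bp (negative outside, positive inside). Purple points are 57 pairs with the same matched end, gold triangles 40 pairs with opposite ends, and the diagonal is equal distance. In 22 of the 57 and 13 of the 40 the values on L and S are within 250 bp of each other.

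Some pairs had midpoints in nearly the same place within the window, at the same and at opposite matched ends, and these were picked from the values. At opposite matched ends the midpoints differed by 1 bp in wnk4 and by 2.5 bp in fam189a2. In both pairs the window edge cut the stretch on both copies. The pairs named next have the same matched end. In litaf, a lysosomal membrane protein gene induced by lipopolysaccharide, the midpoints of the parts within the window differed by 4.5 bp. They were 922 bp inside the higher end on L and 917.5 bp inside on S. The whole common regions, chr9_10L:99733567-99734020 and chr9_10S:86682595-86683210, run past the window edge on both copies. Midpoints within the window differed by 12 bp in snx2 and in tspan18, a tetraspanin. The difference was 30 bp in acsl1, a long-chain acyl-CoA synthetase, and 31.5 bp in csrnp1. The window edge cut the stretch on both copies of snx2, tspan18 and acsl1 and on L of csrnp1. These differences therefore do not place the whole peaks. In ctnnbl1, a splicing-associated protein, the midpoints were at -403.5 bp from the higher end on L and at -447.5 bp on S, both outside the gene. Its ends had 501 bp in each replicate on L and 501 and 788 bp on S. These L and S peaks lie on separate chromosomes, and how far reads can be placed between the homeologs was not tested.

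Both ends of a copy were called in 8 pairs, 6 of them on S and 2 on L. In stard13, a regulator of the actin cytoskeleton, the lower and higher L ends had 493 and 494 bp in replicate 1 and 501 and 414 bp in replicate 2. The higher S end of stard13 had 753 and 628 bp.

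The other 6 had both ends called on S. In smdt1, the subunit that couples the mitochondrial calcium uniporter to its gatekeepers, the S gene is 4.166 kb long. The lower S end had 536 and 539 bp in the replicates, the higher S end 319 and 578 bp and the higher L end 437 and 317 bp. In daam1, a formin of planar cell polarity signalling, the L end had 978 and 1161 bp. Its S ends had 436 and 407 bp at the lower end and 527 and 191 bp at the higher end, where 26 bp were common. In ipo7, a nuclear import receptor, the L end had 650 and 1523 bp and the S ends 181 and 831 bp and 501 and 796 bp. In srd5a3, a polyprenol reductase needed to make dolichol, the S ends had 485 and 493 bp and 501 and 1002 bp. Its L end had 363 and 268 bp with no common base.

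In eif6, an anti-association factor of the large ribosomal subunit, the L end had 146 and 112 bp and the S ends 621 and 501 bp, with no common base, and 1037 and 231 bp. In brpf1, a scaffold of histone acetyltransferase complexes, the L end had 145 and 523 bp. Its S ends had 429 and 908 bp, and 501 and 80 bp with no common base. The call of a second end in daam1, eif6 and brpf1 thus rests on peaks that overlap little or not at all between replicates.

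The genes were of middling length. The 248 homeologs had a median length of 26.4 kb (quartiles 13.4 and 49.1 kb), beside 22.5 kb over all 15528 homeologs. The median was 24.5 kb in the called and 23.7 kb in the uncalled homeologs of pairs with 1 called copy, and 22.0 kb in pairs with none, so the distributions overlapped widely. Lengths of L and S copies ran together (Spearman rank correlation 0.96 over the 124 pairs and 0.92 over all pairs, points that share ancestry). The L copy was the longer in 56 of 124 pairs (45.2%), beside 3999 of 7764 (51.5%), and the median ratio of L to S length was 0.97 beside 1.01. The mean length of a pair had a median of 28.4 kb (quartiles 15.3 and 52.0 kb) in the 64 pairs with the same matched end. It was 20.8 kb (11.2 and 42.1 kb) in the 45 with opposite ends. These spreads overlapped widely and the difference was not tested.

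**Figure D4:**
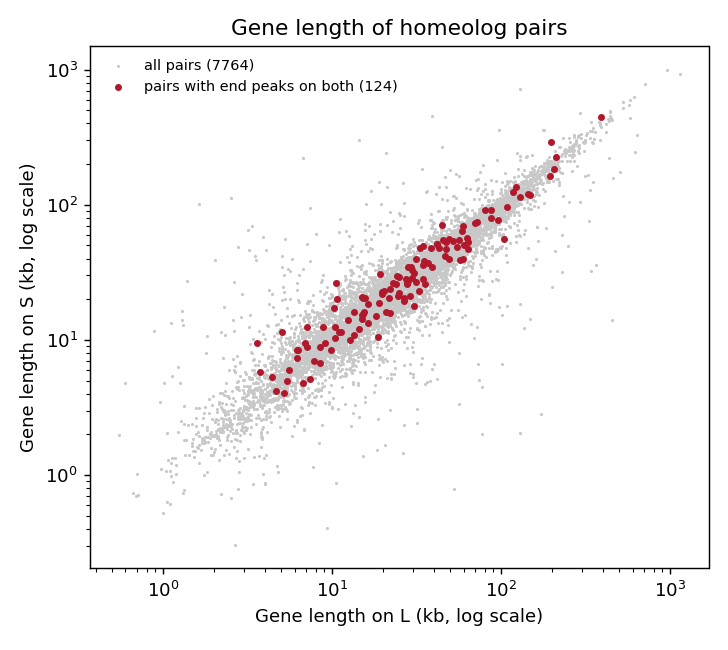
Gene length on S against gene length on L (kb, both axes logarithmic) for all 7764 homeolog pairs (grey) and the 124 pairs with end peaks on both copies (red). The red points run from 3.614 kb to 446.216 kb along the diagonal, with a median of 26.4 kb per homeolog beside 22.5 kb for all.

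The shortest pairs by mean length were smdt1, sp5l and pclaf. The Sp-family transcription factor gene sp5l spans 5.226 kb on L and 4.054 kb on S. It had 550 and 610 bp in the replicates beyond its higher L end and 67 and 86 bp beyond the higher S end. In pclaf, which encodes a partner of the replication clamp, the L end had 74 and 30 bp and the S end 270 and 349 bp with no common base. In so short a gene the windows of the ends take up much of the gene. The longest pairs were utrn, robo1 and cux2. The gene utrn, for the dystrophin-related protein utrophin, spans 391.98 kb on L and 446.216 kb on S and had 637 and 626 bp at the lower L end and 270 and 167 bp at the lower S end. These are the same matched end, with the peak outside on L and inside on S.

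In robo1, a receptor for Slit guidance cues, the L end had 501 bp in each replicate and the S end also 501 bp in each. The common regions were chr2L:24415798-24416261, across the lower end, and chr2S:11082907-11083385, beyond the higher end. The local order there is inverted, so the ends match. In cux2, a homeodomain transcription factor of neurons, the higher L end had 273 and 210 bp and the higher S end 965 and 943 bp. The S value of cux2 was more than that of L in both replicates, and the window edge cut the peaks on both copies.

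By function, the 124 pairs were spread over 17 of 18 lists made from symbols, 64 of them (51.6%) in a list beside 3476 of 7764 pairs (44.8%). A list takes each symbol that fits its pattern, without a check of what the product does. Shares of 0.694% to 3.49% in these 17 lists stand beside 1.6% of all pairs, and with 1 to 9 pairs in a list such shares are imprecise and were not tested. The germline list had 0 of 9 pairs, which is too few to read.

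**Figure D5:**
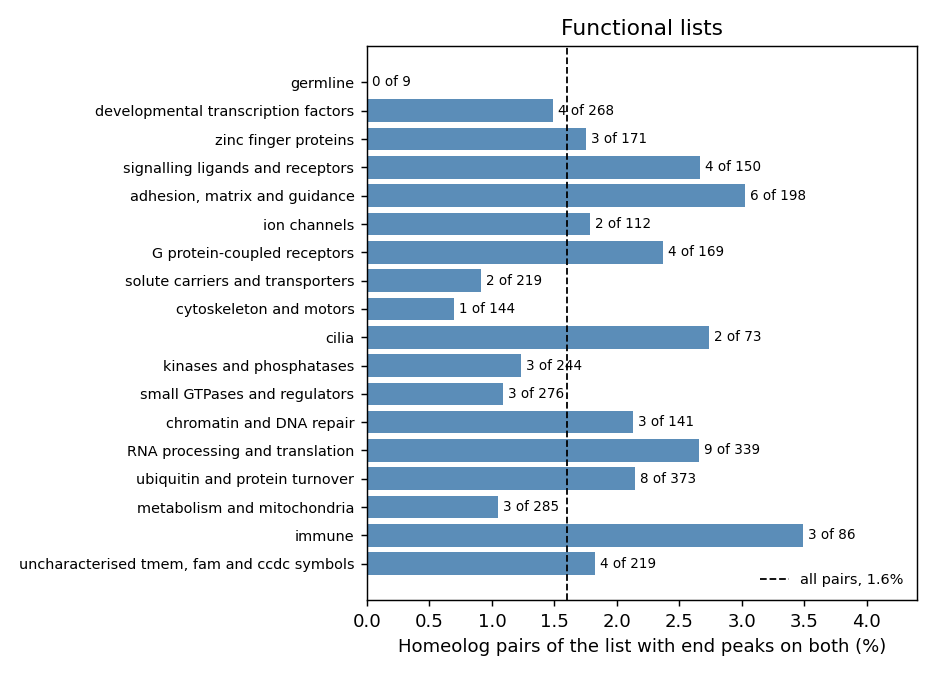
Share of homeolog pairs of each functional list with end peaks on both copies (x axis, %), with the number of pairs at each bar and a dashed line at the 1.6% of all 7764 pairs. Bars run from 0 of 9 germline pairs to 3 of 86 immune pairs.

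Among developmental transcription factors, 4 of 268 pairs (1.49%) had end peaks on both copies. They were cux2, ascl2, foxn2 and sox7. The proneural-family gene ascl2 had 158 and 97 bp in the replicates at its L end and 525 and 124 bp, with no common base, at its S end. The forkhead gene foxn2 had 316 and 336 bp on L and 501 and 825 bp on S, inside the gene on both copies. In sox7, an endodermal and endothelial factor, L had 436 and 350 bp outside and S 642 and 925 bp inside. Zinc finger genes gave 3 of 171 (1.75%), zbtb39, zfp64 and znf665l. In zfp64 and znf665l the replicates had no common base at the L end.

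Ligands and receptors of signalling pathways gave 4 of 150 (2.67%), namely fgf19, tnfrsf11b, acvrl1 and lgr4. The gene fgf19 encodes an endocrine fibroblast growth factor. Its L end had 626 and 672 bp in the replicates, at chr4L:8732020-8732645, and its S end 501 bp in each, at chr4S:14911742-14912164. The ends match in the inverted order of this stretch. In acvrl1, a type I receptor of bone morphogenetic proteins in endothelium, the L end had 158 and 162 bp and the S end 501 and 504 bp. In lgr4, an R-spondin receptor, L had 501 and 1144 bp and S 494 and 887 bp, the latter with no common base.

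Adhesion, matrix and guidance symbols gave 6 of 198 (3.03%). Besides robo1 they were the semaphorin sema4a, the semaphorin receptor plxnb1, the membrane metalloproteases adam17 and adam28.1, and ctnnbl1, whose symbol fits the pattern although its product is splicing-associated. In plxnb1 the replicates had 501 and 664 bp on L and 501 and 628 bp on S, outside the gene on both. In sema4a, L had 638 and 1130 bp and S 724 and 224 bp. In adam17, L had 448 and 488 bp inside the gene. On S it had 501 bp outside the gene in replicate 1 and 1525 bp in replicate 2, whose peak crosses the end. In adam28.1, L had 716 and 980 bp and S 104 and 255 bp.

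Among 169 pairs of G protein-coupled receptors, 4 (2.37%) were found. The proton-sensing receptor gene gpr65 had 501 bp in each replicate on L and on S. The gene gpr171 had 501 bp in each replicate across its higher L end and 533 and 366 bp on S. In ptger3 the values are those given above. The lysophosphatidic acid receptor gene lpar2 had 56 and 791 bp on L, of which 18 bp were common, and 724 and 760 bp on S. Ion channels gave 2 of 112 (1.79%). The potassium channel gene kcnk15 had 441 and 464 bp on L and 949 and 1141 bp on S, and trpa1, a cation channel that senses irritants, 183 and 309 bp on L and 628 and 1059 bp on S.

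Chromatin and DNA repair genes gave 3 of 141 (2.13%), among them brpf1 and smarcd1. In smarcd1, a subunit of SWI/SNF remodellers, L had 162 and 61 bp and S 354 and 342 bp. RNA processing and translation gave 9 of 339 (2.65%), among them celf1, cnot4, eif6, ipo7, larp4b, mrps31, polr1d.1 and srsf5a. The most common bases at a single end, 1005, were at polr1d.1.L, a subunit shared by RNA polymerases I and III. At polr1d.1.S the replicates had 723 and 416 bp without a common base. Ubiquitin and protein turnover gave 8 of 373 (2.14%), btbd3, dnajb6, dnajc13, klhl18, otud7b, rnf114, trim25 and usp25.

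The remaining lists had few pairs. Immune symbols gave 3 of 86 (3.49%), ccl5, cd74 and cd79a. The cilia list gave 2 of 73 (2.74%), ift27 and, by its symbol pattern, ttc9b. Kinases and phosphatases gave 3 of 244 (1.23%), dusp16, sgk3 and wnk4, and small GTPases and regulators 3 of 276 (1.09%), arhgap27, arhgdig and ralgapa1. Metabolism gave 3 of 285 (1.05%), acsl1, hs6st1 and gpatch8, the last again by its symbol alone. In ralgapa1, hs6st1 and gpatch8 the replicates had no common base at the L end. Solute carriers gave 2 of 219 (0.913%), slc26a2.2 and slc7a8, the cytoskeleton 1 of 144 (0.694%), map4, and tmem, fam and ccdc-like symbols 4 of 219 (1.83%). The other 60 pairs were in no list, which is 1.40% of the 4288 pairs without one.

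Some small groups of related genes were noticed among the members after their values were seen, so their counts are a description and support nothing. Over all pairs the shares were 1.6% with end peaks on both copies and 19.7% on exactly 1. In ceramide synthesis, the entry to sphingolipids, 4 of 10 pairs had end peaks on both copies and another 4 (sptlc2, ormdl1, cers1 and cers5) on 1 copy. The 4 were sptlc3, a subunit of the first enzyme, ormdl2, an inhibitor of that enzyme, cers3, a ceramide synthase, and degs1, the desaturase of the last step. In ormdl2 the replicates had 501 and 676 bp on L and 675 and 635 bp on S. In cers3 they had 293 and 478 bp on L and 357 and 380 bp on S. Midpoints of the parts within the window were 32 bp apart outside matched ends, and the window edge cut the stretch on both copies. The other pairs were near the limit of the rule on S: sptlc3 had 226 and 797 bp on L and 76 and 5 bp on S, and degs1 551 and 510 bp on L and 20 and 104 bp on S.

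Of 5 pairs of the mitochondrial calcium uniporter, smdt1 and micu2, a calcium-sensing gatekeeper, had end peaks on both copies. In micu2 the replicates had 423 and 436 bp on L and 280 and 398 bp on S. Of 8 pairs known from B lymphocytes, against the same 1.6% and 19.7% of all pairs, cd79a (an antigen receptor chain), cd74 (the invariant chain of class II antigen presentation) and spib had end peaks on both and spi1 and lyn on 1. In cd79a, L had 599 and 567 bp and S 501 bp in each replicate, and in cd74, L had 162 and 419 bp and S 628 and 501 bp. Of 3 pairs of the endocrine fibroblast growth factor and klotho group, fgf19 and kl, which encodes klotho, were found and klb was not.

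By chromosome pair, 9 to 20 pairs were found on each. The share ran from 12 of 1166 (1.03%) on chromosome pair 1 to 20 of 898 (2.23%) on pair 4. Gene symbols with a number for a tandem copy were 5 of 124 (4.03%), beside 270 of 7764 (3.48%).

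Pairs next to each other on both subgenomes, with no protein-coding gene between them, were 3. The first is btbd3, a BTB-domain protein, with sptlc3, which lie 290395 bp apart on L and 231230 bp on S. The second is kl with stard13, 5971 bp apart on L and 10271 bp on S. In kl the replicates had 550 and 714 bp at the higher L end, where the longest common stretch lay outside the gene, and 206 and 158 bp inside the higher S end. The third is snx2 with snx24, sorting nexins that lie 4866 bp apart on L and 3372 bp on S. Here snx2 had 77 and 430 bp on L and 138 and 101 bp on S, and snx24 501 bp in each replicate on L and 47 and 257 bp on S.

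On S, 1 peak of replicate 1 reached into the windows of both snx2.S and snx24.S, so the calls of these neighbours are not separate there, whereas no peak of replicate 2 did so. No peak was shared by the windows of the other adjacent pairs. With up to 2 coding genes allowed between, ipo7 with wee1, the kinase that holds back entry into mitosis, was a further pair, 75138 bp apart on L and 79653 bp on S. The wee1 ends had 261 and 237 bp on L and 40 and 84 bp on S.

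Away from the ends, in sequence that the rule did not use, the 248 homeologs were compared with the rest. Peaks over 1 kb inside the gene that touch no end window were present in both replicates with a shared base in 122 of 248 homeologs (49.2%). The share was 41.5% over all 15315 homeologs with such a body, 46.4% in the called and 45.1% in the uncalled homeologs of pairs with 1 called copy, and 40.3% in pairs with none. By replicate, 64.5% of the 248 had a body peak in replicate 1 and 74.2% in replicate 2, beside 53.5% and 65.9% of all.

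A longer gene has more room for a peak, so the shares were also taken by length class. Up to 10 kb, 2 of 41 homeologs (4.88%) had such a peak, beside 5.78% of all. From 10 to 25 kb, 26 of 78 (33.3%) did, beside 24.9%. From 25 to 50 kb the values were 38 of 69 (55.1%) and 52.5%, and above 50 kb 56 of 60 (93.3%) and 86.0%. The 248 homeologs were thus above the level of all homeologs, themselves included, in each class over 10 kb and below it in the shortest. From 25 to 50 kb the uncalled homeologs of pairs with 1 called copy had a higher share than they did, at 58.6%. In bases, 2.98% of the body was in peaks in replicate 1 and 5.96% in replicate 2, beside 2.54% and 4.75% of all and 2.75% and 5.23% in the called homeologs of pairs with 1 called copy. From 1 to 10 kb outside the gene the values were 2.90% and 5.90%, beside 2.75% and 5.24% of all and 2.98% and 5.68% in those called homeologs, so in replicate 1 the latter had the higher value. These differences were not tested, since neighbouring regions and the copies of a pair are not independent and there are 2 libraries.

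The gap to the next protein-coding gene lying wholly beyond the end had a median of 16.0 kb at the 256 called ends. It was 15.1 kb at the 240 other ends of the same genes. A coding gene that overlaps the end itself, such as crbn.L at trnt1.L, was passed over in this measure.

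Membership often rested on a short stretch. The least overlap of a pair over its copies and replicates had a median of 212.5 bp (range 5 to 629 bp), was under 50 bp in 10 of 124 pairs and under 100 bp in 26. Just inside the rule were sptlc3 with 5 bp, hs6st1, a heparan sulfate sulfotransferase, with 18 bp, and degs1 with 20 bp. Among those just outside were baiap2, missed by 5 bp on S, and the unnamed gene XB5818699, missed by 10 bp on L. At the strong side, 29 pairs had over 400 common bases on both copies.

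With windows of 500 bp, 17 of the 124 pairs remained, which were arhgdig, cd79a, cln8, ctnnbl1, ctps1, fgf19, gpr65, ipo7, klhl18, ormdl2, plxnb1, ptger3, robo1, srsf5a, tmem179, tnfrsf11b and zbtb39. In these, a peak of each replicate lay within 500 bp of an end on both copies. Of these pairs, srsf5a and zbtb39 were also kept with an overlap of at least 200 bp, with the upper part of each list and with only peaks wider than 600 bp.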

How the data were processed

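MBD-seq of 256-cell embryos was used, with 2 MBD capture libraries. Input data were used by the authors for peak calling and were not analysed here. Reads were aligned by the authors to genome version 10.1 with bowtie, and broad peaks were called with HOMER, each replicate against its own Input (the submitters' processing notes list Bowtie 4.2 and HOMER 4.11). The deposited headers give test windows of 500 bp, and peaks within 1000 bp were joined, and 4-fold more tags than Input were required; the tag threshold was 12 in replicate 1 and 15 in replicate 2. The deposited score was 1 for every peak, so no tag count, fold or p-value per peak could be used. The other columns used hold peak starts and ends.

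Starts were converted to count from 1. Gene coordinates were those of RefSeq for assembly v10.1 (44456 genes, 34461 of them protein-coding on the 18 chromosomes), without strand or sequence. A gene end was called where peaks of both replicates overlapped 1 kb on either side by at least 1 bp. Ends of L and S were matched where at least 80% of 4 or more neighbouring homeolog pairs (up to 5 on each side, within 5 Mb) had one order; this was chosen after seeing the data. Common bases are window bases in peaks of both replicates. Midpoints are those of the longest common stretch after it was cut at the window edges. Body peaks lay over 1 kb inside the gene and touched no end window. No test was run, because the calls chose the pairs. The pairs, lists and named genes were chosen with earlier results of these data known. Named by rule were pairs with both ends called on a copy, the 8 with most common bases on both copies, the 3 shortest and 3 longest, adjacent pairs, up to 6 members of each of 7 lists, and the 3 just inside and outside the rule; other names were picked from the values. Some genes that the rule names are not reported here. The 18 lists are patterns of gene symbols, and the 4 small groups were added after values were seen. Alternatives changed the window, the overlap, the peaks used, the level of the call and the replicates. The functions were tested on simulated lists with planted end peaks and gene orders. Python 3.11.15, numpy 2.4.6, pandas 2.3.3, scipy 1.17.1 and matplotlib 3.10.9 were used.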

Additional observations from a re-analysis of the deposited data

How the results depend on the processing

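The number of pairs depended on the settings. Against 124 pairs, windows of 500 bp gave 17 and of 2 kb 415, an overlap of at least 200 bp gave 65, the upper part of each list (49.4% and 49.2% of the peaks) 38 and peaks wider than 600 bp 15. Where the replicates had to share a base in the window 110 pairs remained, and the call per gene gave 141. With a single replicate there were 275 (without MBD capture replicate 2) to 839 (without MBD capture replicate 1). All 124 are among them by construction, since the rule asks for a peak of each replicate. The share at the same coordinate end (53.4%) was 35.3% at 500 bp, 54.3% at 2 kb, 50.8% at 200 bp of overlap, 49.5% where the replicates had to share a base, 69.4% in the upper part, 55.4% with the call per gene and 53.9% to 54.3% with a single replicate. It was 58.7% with matched ends and 59.3% where all neighbours had to be in one order. With matched ends it was 7 of 16 at 500 bp, 201 of 347 at 2 kb and 23 of 36 in the upper part. So opposite ends outnumbered same ends in the 500-bp windows.

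The median length (26.4 kb) was 18.1 kb at 500 bp, 19.7 kb for wider peaks and 24.2 to 26.5 kb with a single replicate. The share in a functional list (51.6%) was 82.4% at 500 bp (14 of 17 pairs), 43.9% at 2 kb, 56.9% at 200 bp of overlap, 55.3% in the upper part, 60% for wider peaks and 44.5% to 47.6% with a single replicate. Adjacent pairs (3) numbered 0 at 500 bp, 22 at 2 kb, 0 at 200 bp of overlap, 1 in the upper part, 0 for wider peaks and 7 to 70 with a single replicate. The median of common bases (365 bp) was 249.5 bp at 500 bp, 470 bp at 2 kb, 454.5 bp at 200 bp of overlap, 389 bp where a base had to be shared, 404 bp in the upper part, 381.5 bp for wider peaks and 259 bp with the call per gene. A single replicate's own bases had medians of 474.5 to 490 bp. The share with a body peak (49.2%) was 57.8% at 2 kb. There the body still began 1 kb inside the gene, so peaks that chose a pair could also count as body peaks. The share was 26.3% in the upper part and 23.3% for wider peaks, where body peaks were cut as well. With a single replicate any body peak counted. The shares were then 61.7% in replicate 1 and 71.9% in replicate 2, beside 53.5% and 65.9% of all homeologs. At the other alternatives the share over all homeologs was not taken, so a change in the members cannot be told apart.

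Of the values compared, 48 were labelled as moved and 18 as the same. For shares and medians, the same meant within the standard deviation between the runs with a single replicate. That value comes from the single-replicate runs alone, which were themselves labelled against it, and is not a spread of the result. For the share at the same coordinate end it was 0.319 percentage points, so very small changes were labelled as moved. The tally therefore says little about how stable the results are. Numbers of pairs and of adjacent pairs were judged by their size relative to the reported number, not by a spread. The order of the lists was read as a rank, which is an inference. Ends by strand could not be taken, since the table has no strand. No paired analysis was possible because no result comes from a test and the Input libraries were not analysed here. Depth limits the calls: a window without a peak may be methylated.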
